A study of Mus musculus with 12 samples.

Results

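The 10 genes described here report on signalling from fibroblast growth factor (FGF) receptors through the kinase ERK, and they fall into 3 sets by role: the dual-specificity phosphatases Dusp4, Dusp5 and Dusp6, the Sprouty and Spred inhibitors Spry1, Spry2, Spry4 and Spred1, and the ETS transcription factors Etv1, Etv4 and Etv5. They were taken by name, as every gene probe whose gene symbol on the array is 1 of these 10, which gave 13 of 39429 distinct gene probes and 10 of 31896 gene names. Expression was measured on 12 one-colour arrays in cultured mouse neural stem cells derived from the cerebral cortex of E12.5 embryos. All cells carried a stably introduced shRNA, either of random sequence (the control line) or against JMJD3 (the knockdown line), and each line was given vehicle or TGFb at 5 ng/ml for 2.5 h. The 4 groups of 3 arrays were thus control with vehicle, control with TGFb, JMJD3 shRNA with vehicle and JMJD3 shRNA with TGFb. The sample labels list the treatment of the vehicle arrays as none, and no allele or strain is named in them. Each shRNA is represented by 1 line, so that a difference between the lines cannot be told apart from a difference between any 2 transfected cultures. Nothing in the labels says whether the 3 arrays of a group stand for independent cultures, and the p-values therefore cover the spread between arrays alone, which may be technical. In bulk RNA, fewer cells of a type and less RNA per cell cannot be told apart.

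FGF binding makes its receptor recruit adaptors that switch on Ras, which starts the relay Raf, MEK and ERK. Active ERK phosphorylates transcription factors, and among the genes that then rise are its own brakes and its effectors, which is why these transcripts are widely read as an output of the pathway. Dusp6 is a cytoplasmic phosphatase that removes the activating phosphates from ERK, Dusp5 does so in the nucleus, and Dusp4 is a nuclear phosphatase with a wider choice of MAP kinases. Sprouty and Spred proteins act upstream, at the level of the receptor adaptors and Raf. Etv1, Etv4 and Etv5 form the PEA3 subfamily of ETS factors, and in neural progenitors of the forebrain they are expressed where FGF signalling is active. FGF is also a usual component of the medium in which such cells are kept. TGFb signals mainly through Smad proteins, and JMJD3, the product of Kdm6b, is a histone demethylase.

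The 250 bases before the annotated start are shown for 4 members, 3 whose signal fell with TGFb in the control line (Dusp6, Etv1 and Etv5) and the 1 whose signal differed most between the lines under TGFb among those that passed the test (Dusp5). They are RefSeq sequences on GRCm38.p6, written 5′ to 3′ on the gene's strand, and capitals mark every match to the motifs named after them. The window of Dusp6 is chr10:99262981-99263230 on the plus strand, that of Etv1 is chr12:38779832-38780081 on the plus strand, that of Etv5 is chr16:22439571-22439820 on the minus strand, and that of Dusp5 is chr19:53528895-53529144 on the plus strand.
Dusp6: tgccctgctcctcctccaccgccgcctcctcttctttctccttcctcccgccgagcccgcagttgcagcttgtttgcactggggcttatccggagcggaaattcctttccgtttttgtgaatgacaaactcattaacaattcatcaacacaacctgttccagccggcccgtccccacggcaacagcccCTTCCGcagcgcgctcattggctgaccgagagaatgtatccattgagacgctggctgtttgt
Etv1: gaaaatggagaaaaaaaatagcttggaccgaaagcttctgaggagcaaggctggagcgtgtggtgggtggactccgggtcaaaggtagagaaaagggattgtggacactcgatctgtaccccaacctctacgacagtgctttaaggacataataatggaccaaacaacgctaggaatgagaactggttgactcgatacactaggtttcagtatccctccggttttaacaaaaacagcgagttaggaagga
Etv5: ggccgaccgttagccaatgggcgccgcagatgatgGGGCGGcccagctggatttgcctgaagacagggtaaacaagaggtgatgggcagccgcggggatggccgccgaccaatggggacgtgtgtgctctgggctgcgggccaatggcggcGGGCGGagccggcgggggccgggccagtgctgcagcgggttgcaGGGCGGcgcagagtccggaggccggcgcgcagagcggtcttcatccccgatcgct
Dusp5: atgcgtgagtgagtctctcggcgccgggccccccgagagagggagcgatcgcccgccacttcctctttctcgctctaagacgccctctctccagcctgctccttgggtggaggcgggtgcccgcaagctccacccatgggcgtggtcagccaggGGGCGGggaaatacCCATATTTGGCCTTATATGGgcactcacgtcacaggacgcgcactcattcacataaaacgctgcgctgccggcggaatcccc
The motifs were searched on both strands in windows from 250 bases before to 50 after the start. Of the RefSeq windows, 9 belonged to 7 of the members, and Dusp4, Spry4 and Etv4 had none. The ETS core CCGGAA was in 14.9% of all 32851 windows and in that of Spry2. The overlapping form CGGAAG was in 16.9% of all windows, and in those of Dusp6 and Spred1. In Dusp6 it lies on the opposite strand and begins at position -62 from the start. The CArG box bound by serum response factor, CC then 6 bases that are A or T then GG, was in 1.63% of all windows. Dusp5 was the 1 member with it and holds a pair of adjoining boxes, which begin at positions -82 and -72 from the start. The Sp1 motif GGGCGG was in 35.7% of all windows and in those of Dusp5, Etv5, Spred1 and Spry1. Etv5 and Spred1 each had a window with 3 copies. No member window held the CRE TGACGTCA (1.79% of all windows), the AP-1 sites TGAGTCA or TGACTCA (5.20%), the Smad palindrome GTCTAGAC (0.213%) or the shorter Smad motif CAGACA (21.0%). The 4 windows differ in base composition, from 46.4% G and C in Etv1 through 56.4% in Dusp6 and 64.0% in Dusp5 to 71.2% in Etv5, where the median over all windows was 52.4%. A match in these windows is a description of letters and not a measured binding site.

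Over the arrays the processed signal had a 75th percentile of 3175 to 4462, 70.7% to 78.7% of gene spots were well above background and no spot was saturated. Levels below are log2 signals relative to that percentile of the same array, so that 0 is the 75th percentile. Differences are on the same log2 scale, and levels of different probes are not compared. The test was limma's moderated test over 24149 genes with Benjamini-Hochberg adjustment, 8 residual degrees of freedom and a threshold of 0.05, and the median standard error of a difference was 0.10. Kdm6b, the targeted gene, had a level of -0.77 ± 0.06 in control cells with vehicle and -1.94 ± 0.03 in JMJD3 shRNA cells with vehicle (SD, n = 3). It fell by 1.16 with vehicle and by 1.40 with TGFb. The arrays lie on 4 slides. Slide 1 held replicate 1 of both vehicle groups, and slide 2 held replicate 2 of both vehicle groups and replicate 1 of control with TGFb. Slide 3 held replicate 3 of both vehicle groups, replicate 2 of control with TGFb and replicate 1 of JMJD3 shRNA with TGFb. Slide 4 held the other 3 arrays, all with TGFb. Slide terms added to the groups passed the test for 19.8% of genes. Slide is therefore given beside each result it alters. All 13 member probes were well above background on all 12 arrays, and none was saturated or marked as an outlier.

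With TGFb the phosphatase transcripts Dusp4 and Dusp6 and the ETS factor transcripts Etv5 and Etv1 fell in control cells, and Dusp4, Etv1 and Etv5 fell in JMJD3 shRNA cells. In control cells Dusp4 fell by 0.81, Etv5 fell by 0.47, Dusp6 fell by 0.32 and Etv1 fell by 0.28. In JMJD3 shRNA cells Dusp4 fell by 0.53, Etv1 fell by 0.44 and Etv5 fell by 0.38, while Spry1 rose by 0.46. So 4 of 10 members fell and 0 rose in control cells, where 10.1% of all genes passed the test, 5.43% higher and 4.72% lower. In JMJD3 shRNA cells 3 of 10 fell and 1 rose, where 9.49% of all genes passed the test, 4.74% higher and 4.75% lower. The median change of the 10 members was -0.30 in control cells and -0.02 in JMJD3 shRNA cells, beside medians of -0.01 and -0.02 over all genes. The arrays of the groups did not overlap for 7 members in control cells and for 5 in JMJD3 shRNA cells, where 22.1% and 24.1% of all genes did not overlap.

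**Figure D1:**
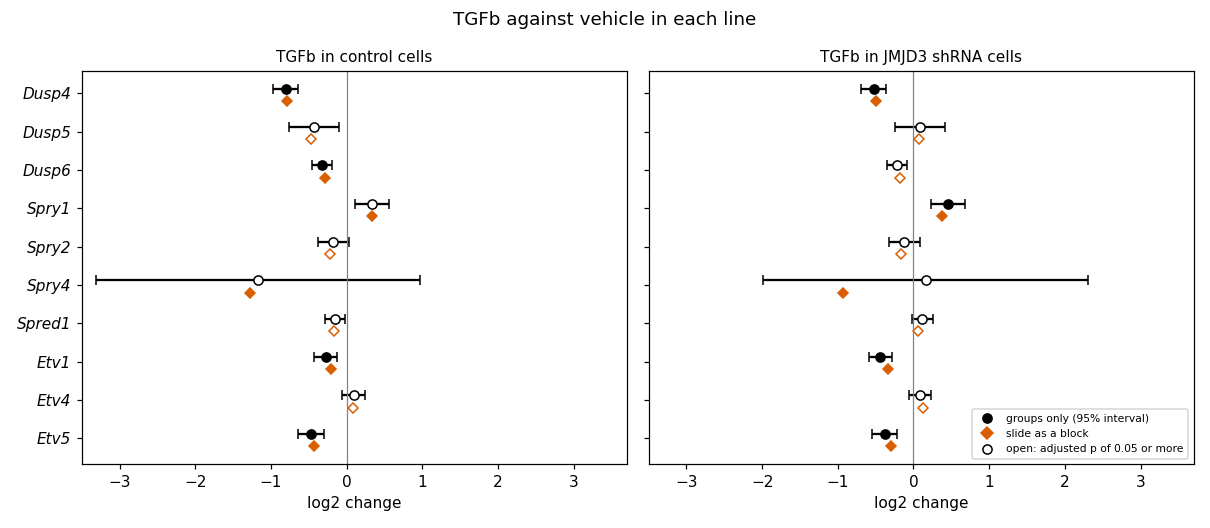
Log2 change with TGFb against vehicle for the 10 genes, control cells on the left and JMJD3 shRNA cells on the right. Circles with 95% intervals come from the fit with groups alone and diamonds from the fit with slide as a block, and filled symbols mark an adjusted p under 0.05. Dusp4, Etv1 and Etv5 are filled below 0 in both panels, Spry1 lies above 0 in both, and the interval of Spry4 is far wider than the others and its diamonds lie at -1.28 and -0.93.

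The knockdown line differed from the control line mainly by lower Dusp4, Dusp6, Spred1 and Etv5 with vehicle, and by higher Dusp5 and Spry1 and lower Dusp6 with TGFb. With vehicle Dusp4 fell by 0.40, Dusp6 fell by 0.37, Spred1 fell by 0.26 and Etv5 fell by 0.23 in the knockdown line against the control line. With TGFb Dusp5 was higher by 0.68, Spry1 was higher by 0.30 and Dusp6 fell by 0.26. With vehicle 4 of 10 members passed the test, all of them lower, where 27.8% of all genes passed and 15.3% were lower. With TGFb 2 were higher and 1 lower, where 29% of all genes passed, 12% higher and 17% lower. Set against the shares passing in either direction, the members' totals between the lines are near the background. The 4 of 10 lower with vehicle are above the 15.3% of all genes that were lower, and this count was not tested. The median difference of the members was -0.04 with vehicle and 0.01 with TGFb, beside -0.02 and -0.01 over all genes. The arrays did not overlap for 5 members with vehicle and for 3 with TGFb, where 41.1% and 38.7% of all genes did not overlap. The comparisons of TGFb and of knockdown share their groups, so their values for a gene are not independent of each other.

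**Figure D2:**
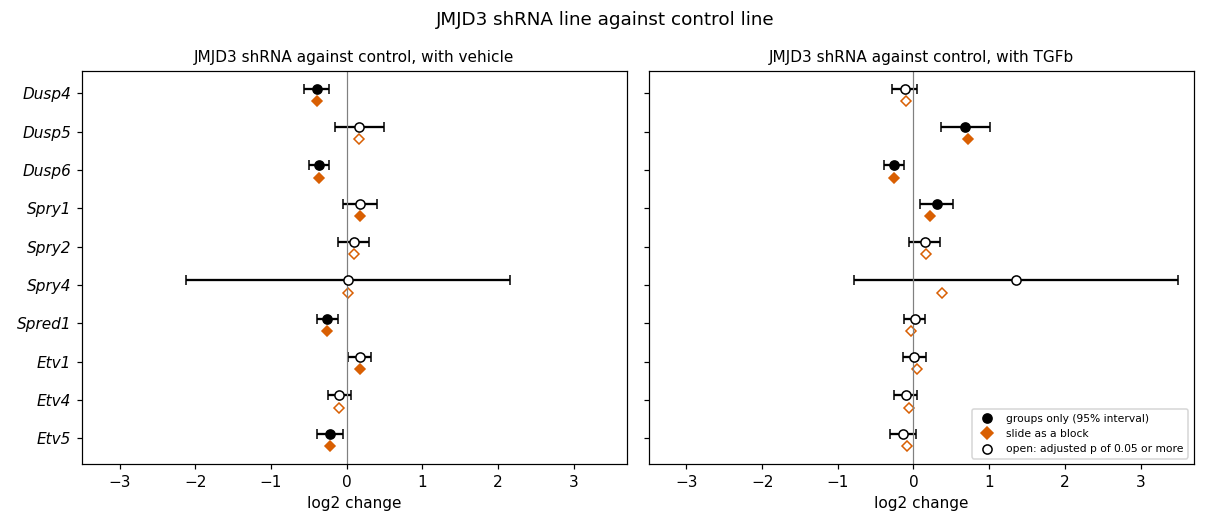
Log2 difference between the JMJD3 shRNA line and the control line for the 10 genes, with vehicle on the left and TGFb on the right. Symbols are as in the plot of changes with TGFb. Dusp6 is filled below 0 in both panels, at -0.37 and -0.26, and Dusp5 is filled at 0.68 with TGFb only.

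Dusp6, the cytoplasmic ERK phosphatase, is read by 1 probe at chr10:98729985-98730044 (mm9, plus strand). Its level was 5.64, 5.50 and 5.60 in control cells with vehicle, and 5.17, 5.35 and 5.24 in control cells with TGFb. In JMJD3 shRNA cells it was 5.29, 5.21 and 5.15 with vehicle, and 5.05, 5.04 and 4.91 with TGFb. The 3 control vehicle arrays lay above all 9 others, and the 3 arrays with both the knockdown and TGFb lay below all 9 others. The fall with TGFb in control cells was 1.25-fold (log2 change -0.32, SE 0.06, adjusted p = 0.00479), and the fall with knockdown was 1.29-fold with vehicle (-0.37, adjusted p = 0.00102) and 1.19-fold with TGFb (-0.26, adjusted p = 0.00872). With TGFb in JMJD3 shRNA cells the change of -0.22 missed the threshold narrowly (SE 0.06, adjusted p = 0.0518), although the arrays did not overlap. That change passed with quantile normalization (-0.24, adjusted p = 0.0273), with array weights (-0.24, adjusted p = 0.0145), with slide as a random block (-0.20, adjusted p = 0.0497) and over probes well above background on all arrays (adjusted p = 0.0492), but with slide as a fixed term it was -0.18 (adjusted p = 0.166). With scaling to the array median the falls of Dusp6 with TGFb in control cells (adjusted p = 0.0548) and with knockdown under TGFb (adjusted p = 0.0533) no longer passed, and with the authors' processed values the latter did not either (adjusted p = 0.0599).

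Dusp4, the nuclear phosphatase with the broader substrate range, had the largest fall with TGFb among the members that passed the test. Its probe lies at chr8:35882045-35882104 (mm9, plus strand). The level was -0.28, -0.45 and -0.29 in control cells with vehicle, and -1.17, -1.03 and -1.23 with TGFb. The JMJD3 shRNA cells had -0.85, -0.64 and -0.71 with vehicle, and -1.22, -1.24 and -1.34 with TGFb. The vehicle arrays of each line lay above all TGFb arrays, and the vehicle arrays of the knockdown line lay between the control vehicle arrays and the arrays with TGFb. The fall with TGFb was 1.75-fold in control cells (-0.81, SE 0.07, adjusted p = 1.73e-05) and 1.44-fold in JMJD3 shRNA cells (-0.53, SE 0.07, adjusted p = 0.000618). Knockdown with vehicle gave a 1.32-fold fall (-0.40, adjusted p = 0.00196). With TGFb present the 2 lines overlapped, and the difference of -0.12 did not pass (adjusted p = 0.274, 95% interval -0.28 to 0.04). Within slides the change with TGFb in control cells was -0.73 on slide 2 and -0.74 on slide 3, and in JMJD3 shRNA cells -0.50 on slide 3.

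Dusp5, the nuclear ERK-specific phosphatase, did not pass the test with TGFb in either line. It was measured near the lower end of the signal range, at processed signals of 37.0 to 78.8. Its probe lies at chr19:53615682-53615741 (mm9, plus strand). The level was -6.17, -5.78 and -6.21 in control cells with vehicle, and -6.43, -6.60 and -6.43 with TGFb. Levels in JMJD3 shRNA cells were -5.96, -5.89 and -5.82 with vehicle, and -5.79, -5.63 and -5.99 with TGFb. Every control array with TGFb lay below all other arrays, whereas in JMJD3 shRNA cells the arrays with and without TGFb overlapped. The change with TGFb in control cells was -0.43 and did not pass (SE 0.15, adjusted p = 0.106), and it passed only with slide as a random block (-0.46, adjusted p = 0.0446). In JMJD3 shRNA cells the change was 0.09 (adjusted p = 0.796, 95% interval -0.24 to 0.41). Between the lines with TGFb, Dusp5 was 1.61-fold higher in JMJD3 shRNA cells (0.68, SE 0.15, adjusted p = 0.00468), by 0.81 on slide 3 and by 0.62 on slide 4. That difference shrank to 0.27 with normexp background correction (adjusted p = 0.0200) and to 0.30 with the authors' processed values (adjusted p = 0.00274), and it passed in all 13 alternatives.

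**Figure D3:**
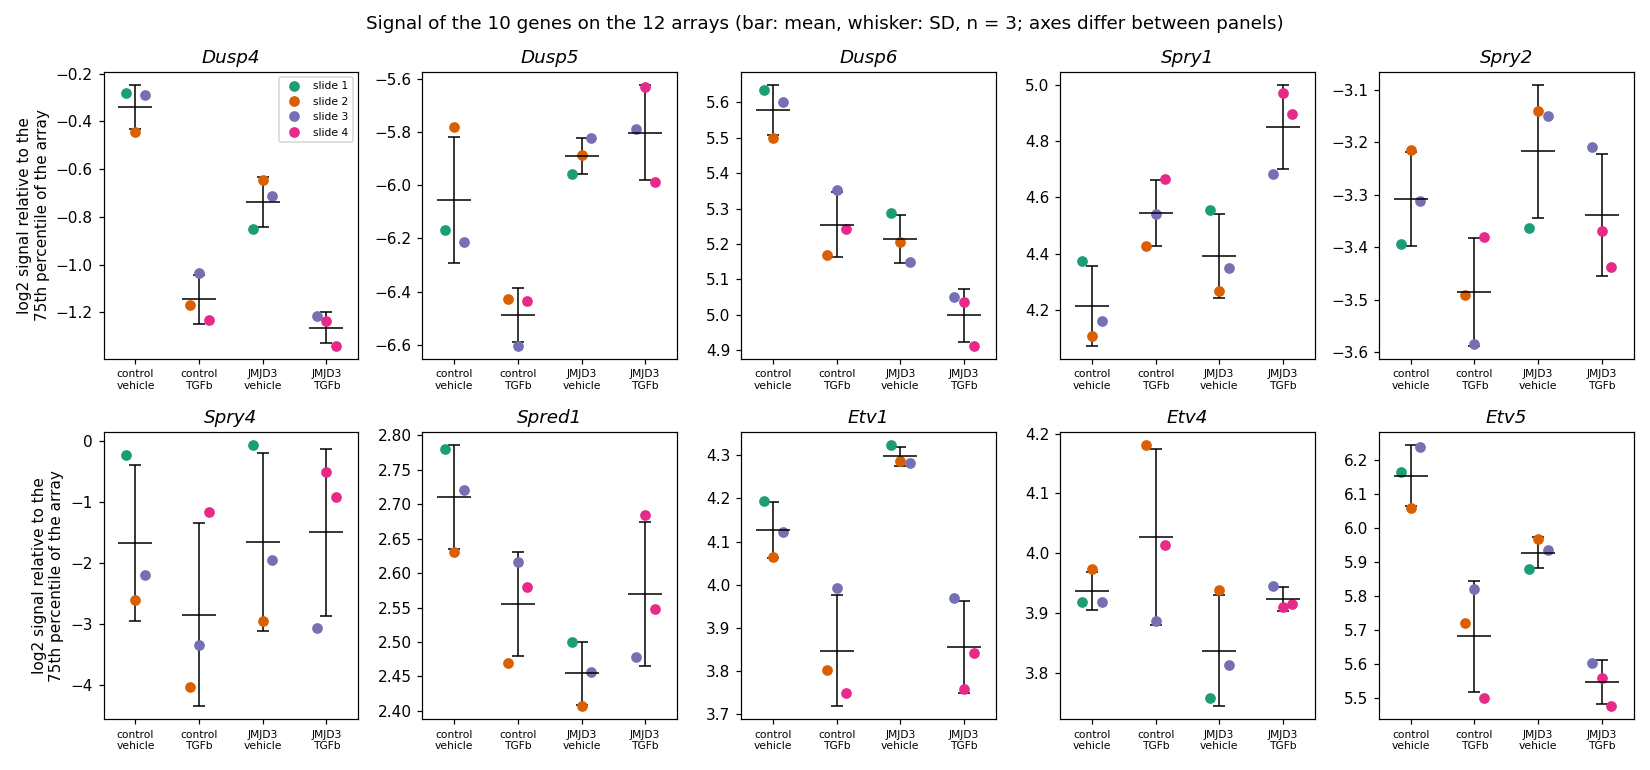
Log2 level (0 is the 75th percentile of the array) of the 10 genes on the 12 arrays, by group, with the mean and SD of 3 arrays. Colours mark the slide and each panel has its own axis. The control vehicle arrays of Dusp4 and Dusp6 lie above all others, the control TGFb arrays of Dusp5 lie below all others, and the Spry4 arrays spread from -4.03 to -0.07 with slides 1 and 4 high.

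Spry1, a Sprouty inhibitor that acts between the receptor and Raf, was the 1 member that rose with TGFb. Its probe lies at chr3:37543403-37543462 (mm9, plus strand). The level was 4.38, 4.11 and 4.16 in control cells with vehicle, and 4.43, 4.54 and 4.67 with TGFb. In the knockdown line it was 4.56, 4.27 and 4.35 with vehicle, and 4.68, 4.97 and 4.90 with TGFb. All 6 arrays with TGFb lay above the vehicle arrays of the same line, and the 3 arrays with both the knockdown and TGFb lay above all 9 others. Spry1 rose 1.37-fold with TGFb in JMJD3 shRNA cells (0.46, SE 0.10, adjusted p = 0.0138) and was 1.23-fold higher with knockdown under TGFb (0.30, SE 0.10, adjusted p = 0.043). In control cells the change with TGFb was 0.33 and did not pass (adjusted p = 0.0675), and the difference between the lines with vehicle was 0.18 (adjusted p = 0.25). Slide moved the level of Spry1 (adjusted p = 0.00276 for slide terms), and with slide as a block all 4 of these comparisons passed, at 0.37 (adjusted p = 0.001), 0.22 (adjusted p = 0.00284), 0.33 (adjusted p = 0.000505) and 0.18 (adjusted p = 0.00483). Within slides the change with TGFb in control cells was 0.32 and 0.38, and the difference between the lines with vehicle was 0.18, 0.16 and 0.19. Without the block, the rise in JMJD3 shRNA cells no longer passed when replicate 2 or 3 of either of its groups was left out (adjusted p up to 0.0662). The difference between the lines under TGFb no longer passed without replicate 1 or 2 of control with TGFb or replicate 2 or 3 of JMJD3 shRNA with TGFb (adjusted p up to 0.155).

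Spry2, a second Sprouty inhibitor, passed the test in none of the comparisons of groups, nor in any of the 13 alternatives. Its probe lies at chr14:106291845-106291904 (mm9, minus strand). The level was -3.39, -3.22 and -3.31 in control cells with vehicle, -3.49, -3.59 and -3.38 in control cells with TGFb, -3.36, -3.14 and -3.15 in JMJD3 shRNA cells with vehicle, and -3.21, -3.37 and -3.44 in JMJD3 shRNA cells with TGFb. The groups overlapped in every comparison. The change with TGFb was -0.18 in control cells (95% interval -0.38 to 0.03, adjusted p = 0.359) and -0.12 in JMJD3 shRNA cells (95% interval -0.33 to 0.08, adjusted p = 0.52).

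Spred1, a membrane-bound inhibitor of the Ras and Raf step, was lower in the knockdown line before TGFb was added. The brighter of its 2 probes lies at chr2:117005906-117005965 (mm9, plus strand) and the other at chr2:117004952-117005011. The level was 2.78, 2.63 and 2.72 in control cells with vehicle, 2.47, 2.62 and 2.58 in control cells with TGFb, 2.50, 2.41 and 2.46 in JMJD3 shRNA cells with vehicle, and 2.48, 2.68 and 2.55 in JMJD3 shRNA cells with TGFb. The vehicle arrays of the 2 lines did not overlap, and those with TGFb did. Spred1 was 1.19-fold lower with knockdown under vehicle (-0.26, SE 0.06, adjusted p = 0.00928), and its second probe gave -0.27 (adjusted p = 0.0278). This call did not hold with normexp (adjusted p = 0.0512), with scaling to the array median (adjusted p = 0.064) or with the authors' processed values (adjusted p = 0.0703). With TGFb the change was -0.16 in control cells, where the arrays did not overlap (adjusted p = 0.18), and 0.12 in JMJD3 shRNA cells (adjusted p = 0.344), and the difference between the lines under TGFb was 0.01 (95% interval -0.12 to 0.15).

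Spry4, another Sprouty inhibitor and a classical FGF target, is read by 1 probe on chromosome 18, and its signal followed the slide more than the group. The level was -0.22, -2.61 and -2.20 in control cells with vehicle, and -4.03, -3.35 and -1.17 with TGFb. For JMJD3 shRNA cells the values were -0.07, -2.95 and -1.96 with vehicle, and -3.06, -0.51 and -0.92 with TGFb. The arrays of slides 1 and 4 were high and those of slides 2 and 3 low whatever the group, and all groups overlapped. After group means were removed, the mean of slide 1 was 1.52, of slide 2 -1.14, of slide 3 -0.72 and of slide 4 1.08 (adjusted p = 2.85e-06 for slide terms). That range of 2.66 between slides stands beside a median of 0.18 over all genes, and 25 of 24149 genes, Spry4 included, had a range at least as wide. In all 25, slides 1 and 4 lay above slides 2 and 3. With groups alone, the change with TGFb was -1.17 in control cells (SE 0.97, adjusted p = 0.658) and 0.16 in JMJD3 shRNA cells (SE 0.97, adjusted p = 0.95). With slide as a block, Spry4 fell by 1.28 with TGFb in control cells (SE 0.14, adjusted p = 0.000139) and fell by 0.93 in JMJD3 shRNA cells (SE 0.16, adjusted p = 0.00491), so the direction in JMJD3 shRNA cells turned. With slide as a random block the changes were -1.21 (adjusted p = 0.278) and -0.47 (adjusted p = 0.756). Within slides the change in control cells was -1.43 on slide 2 and -1.14 on slide 3, and that in JMJD3 shRNA cells was -1.10 on slide 3, the 1 slide with both of its groups. The difference between the lines within slides was 0.15, -0.34 and 0.25 with vehicle on slides 1 to 3, and 0.29 and 0.45 with TGFb on slides 3 and 4.

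**Figure D4:**
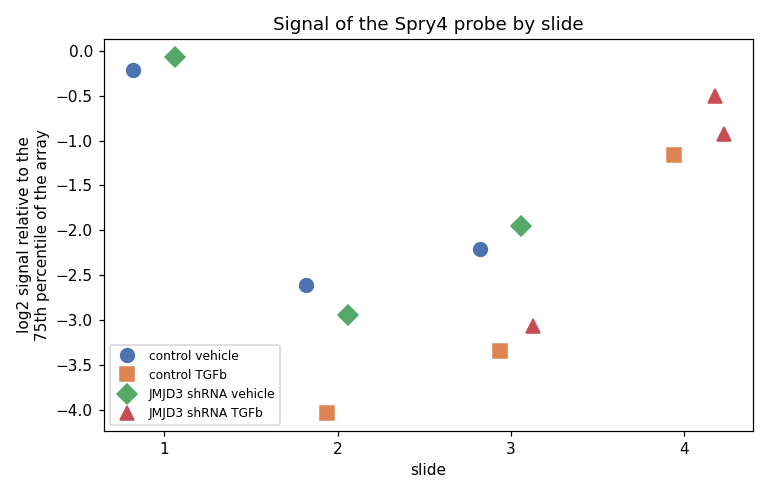
Log2 level of the Spry4 probe (0 is the 75th percentile of the array) against the slide, 1 point for each of the 12 arrays, with colour and shape for the group. Slides 1 and 4 lie above slides 2 and 3, and within slides 2 and 3 the arrays with TGFb, at -4.03, -3.35 and -3.06, lie below the vehicle arrays, at -2.95 to -1.96.

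Etv5, an ETS factor of the PEA3 subfamily, fell with TGFb in both lines. Its probe lies at chr16:22381387-22381446 (mm9, minus strand). The level was 6.16, 6.06 and 6.24 in control cells with vehicle, and 5.72, 5.82 and 5.50 with TGFb. The JMJD3 shRNA line had 5.88, 5.97 and 5.93 with vehicle, and 5.60, 5.56 and 5.48 with TGFb. The vehicle arrays lay above the TGFb arrays of the same line, and the control vehicle arrays lay above all 9 others. The fall with TGFb was 1.39-fold in control cells (-0.47, SE 0.08, adjusted p = 0.00168) and 1.30-fold in JMJD3 shRNA cells (-0.38, SE 0.08, adjusted p = 0.00788), and both passed in all 13 alternatives and without each array in turn. The lower level in the knockdown line with vehicle was at the threshold (-0.23, SE 0.08, adjusted p = 0.0488). It did not pass in 6 of the 13 alternatives, with -0.08 under quantile normalization (adjusted p = 0.515) at the extreme, and it was lost when any 1 array other than control vehicle replicate 2 was left out (adjusted p up to 0.176). Under TGFb the difference between the lines was -0.13 (adjusted p = 0.228), and without replicate 3 of control with TGFb it was -0.23 (adjusted p = 0.0209).

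Etv1, a second PEA3 factor, also fell with TGFb in both lines. It has 2 probes, the brighter at chr12:39593054-39593113 (mm9, plus strand) and a dim one at chr12:39594622-39594681. On the brighter probe the level was 4.19, 4.06 and 4.12 in control cells with vehicle, and 3.80, 3.99 and 3.75 with TGFb. Knockdown cells had 4.32, 4.29 and 4.28 with vehicle, and 3.97, 3.76 and 3.84 with TGFb. All 6 arrays with TGFb lay below all 6 vehicle arrays, and the vehicle arrays of the knockdown line lay above those of the control line. The fall with TGFb was 1.21-fold in control cells (-0.28, SE 0.07, adjusted p = 0.0238) and 1.36-fold in JMJD3 shRNA cells (-0.44, SE 0.07, adjusted p = 0.0014). The fall in control cells no longer passed without replicate 1 or 3 of control with vehicle or replicate 1 or 3 of control with TGFb (adjusted p up to 0.0933). It also failed with normexp (adjusted p = 0.0512), with scaling to the array median (adjusted p = 0.187), in a fit of its 2 groups alone (adjusted p = 0.0717) and as the mean of both probes (adjusted p = 0.102). The higher level in the knockdown line with vehicle, 0.17, did not pass (adjusted p = 0.0966). It passed in 6 of the 13 alternatives, among them slide as a block (adjusted p = 0.0125), quantile normalization (0.24, adjusted p = 0.0200) and the authors' processed values (0.24, adjusted p = 0.0344). The dim probe agreed on the fall in JMJD3 shRNA cells (-0.47, adjusted p = 0.00827) but gave -0.12 in control cells (adjusted p = 0.617), and under TGFb its difference between the lines was -0.31 (adjusted p = 0.0293) where the brighter probe gave 0.01 (adjusted p = 0.941).

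Etv4, the remaining PEA3 factor, passed the test in no comparison and in none of the 13 alternatives. The brighter of its 2 probes lies at chr11:101631057-101631116 (mm9, minus strand) and the other at chr11:101631322-101631381. The level was 3.92, 3.97 and 3.92 in control cells with vehicle, 4.18, 3.89 and 4.01 in control cells with TGFb, 3.76, 3.94 and 3.81 in JMJD3 shRNA cells with vehicle, and 3.95, 3.91 and 3.91 in JMJD3 shRNA cells with TGFb. The groups overlapped in every comparison. The change with TGFb was 0.09 in control cells (95% interval -0.06 to 0.24) and 0.09 in JMJD3 shRNA cells (95% interval -0.06 to 0.24), intervals that leave out a fall of the size measured for Etv5. Its second probe gave 0.02 and 0.07.

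The difference of the 2 changes with TGFb, JMJD3 shRNA minus control, was tested in the same limma fit. No member passed (0 of 10), where 0.087% of all genes passed the test. For 3 members the unadjusted 95% interval excluded 0, namely Dusp4 at 0.28 (interval 0.05 to 0.51, adjusted p = 0.881), Dusp5 at 0.52 (interval 0.06 to 0.98, adjusted p = 0.951) and Spred1 at 0.27 (interval 0.08 to 0.46, adjusted p = 0.705). In each the change with TGFb was less negative or more positive in JMJD3 shRNA cells. The second probe of Spred1 gave 0.20, with an interval that included 0 (-0.05 to 0.46). With the authors' processed values the differences of Dusp4 and Dusp5 were 0.18 (SE 0.13) and 0.21 (SE 0.08). With normexp background correction they were 0.19 and 0.23. The falls of Dusp6, Etv1 and Etv5 differed between the lines by 0.11, -0.16 and 0.09, with intervals of -0.08 to 0.30, -0.38 to 0.06 and -0.15 to 0.33. The dim probe of Etv1 gave -0.35, with an interval that excluded 0 on the opposite side (-0.64 to -0.05, adjusted p = 0.953). On slide 3, which held all 4 groups, the difference was 0.24 for Dusp4, 0.42 for Dusp5 and 0.13 for Spred1.

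Upstream of ERK, the FGF ligand Fgf18 rose and the ligand Fgf9 fell with TGFb in both lines. Of 15 FGF family and FGF receptor genes measured, of 20 listed, 1 rose and 1 fell in control cells, and 2 rose and 2 fell in JMJD3 shRNA cells. Not every family member listed is a receptor ligand. The counts in this and the next 6 lists stand beside 10.1% of all genes passing with TGFb in control cells and 9.49% in JMJD3 shRNA cells, and 27.8% and 29% passing between the lines with vehicle and with TGFb. Fgf18 rose in control cells by 2.47 (adjusted p = 3.09e-08), from -1.90, -2.11 and -1.97 with vehicle to 0.63, 0.57 and 0.21 with TGFb. It also rose in the knockdown line (adjusted p = 5.64e-09), from -2.78, -2.53 and -2.65 to 0.50, 0.38 and 0.46. Fgf9, a ligand made by neural cells, fell by 0.56 and fell by 0.79. In JMJD3 shRNA cells the receptor Fgfr1 rose by 0.23 and Fgfr2 fell by 0.27. The median change of the list was 0.06 and -0.01, beside -0.01 and -0.02 over all genes. Between the lines 4 genes were higher and 2 lower with vehicle, among them Fgfr2 at 0.48 and Fgf18 at -0.66. With TGFb 3 were higher and 1 lower, among them the family member Fgf12 at 0.58.

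Of 16 other receptors and ligands that feed into ERK, 4 rose and 3 fell in control cells given TGFb, and 4 rose and 4 fell in JMJD3 shRNA cells. Areg, a ligand of the EGF receptor, fell by 1.08 and fell by 1.10, and Egfr itself fell by 0.57 in control cells. In JMJD3 shRNA cells Egfr was lower with TGFb too, at a mean level of 3.61 beside 3.95 with vehicle, and the arrays did not overlap. Pdgfb rose by 1.11 and by 1.20, and the receptor Kit rose by 0.94 and by 0.53. Between the lines 8 of the 16 were lower and 4 higher with vehicle, and 7 were lower and 2 higher with TGFb. The PDGF receptor Pdgfra fell by 1.97 with vehicle (adjusted p = 1.85e-08) and fell by 1.79 with TGFb, and the ligand Pdgfb fell by 1.78 and fell by 1.68, while Pdgfc was higher by 0.82 and 0.72. The list's median difference was -0.19 with vehicle and -0.15 with TGFb, beside -0.02 and -0.01 over all genes.

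In the relay itself, from the adaptors through Ras, Raf and MEK to ERK and its direct targets, 27 of 27 listed genes were measured. With TGFb 4 rose and 1 fell in control cells, and 3 rose and 1 fell in JMJD3 shRNA cells. The exchange factors for Ras, Sos1 and Sos2, rose by 0.40 and 0.32 in control cells and by 0.43 and 0.27 in JMJD3 shRNA cells. Mapk7, which encodes the related kinase ERK5, fell by 0.76 (adjusted p = 2.51e-06) and fell by 0.59. Between the lines 5 were higher and 3 lower with vehicle, with the adaptor Gab1 at 0.55 and the ERK-activated kinase Rps6ka1 at -0.62. With TGFb 2 were higher and 6 lower, among them Mapk3, which encodes ERK1, at -0.31 and Hras at -0.27.

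The other negative regulators moved in both directions. Of 15 other inhibitors of Ras and ERK signalling, 3 rose and 2 fell in control cells given TGFb and 2 rose and 2 fell in JMJD3 shRNA cells. Spred3, a relative of Spred1, fell by 0.46 and fell by 0.52, the Ras-inactivating Rasa2 fell by 0.49 and fell by 0.48, and Errfi1, an inhibitor of the EGF receptor, rose by 0.36 in control cells. Spred3 was higher in the knockdown line, by 0.60 with vehicle and 0.53 with TGFb, where Spred1 was lower with vehicle.

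Of the 8 other MAP kinase phosphatases, 4 fell and 0 rose in control cells given TGFb, and 4 fell and 1 rose in JMJD3 shRNA cells. Dusp10, which acts on the stress kinases JNK and p38, fell by 0.57 (adjusted p = 0.00173) and fell by 0.65 (adjusted p = 0.000753). Dusp16, also a JNK and p38 phosphatase, fell by 0.28 and fell by 0.44. Dusp1, an immediate early phosphatase, fell by 0.45 (adjusted p = 0.0124) and fell by 1.05 (adjusted p = 2.51e-05), and Dusp2 fell by 0.54 in control cells. In JMJD3 shRNA cells Dusp2 was lower with TGFb too, at a mean level of -3.01 beside -2.68 with vehicle, and the arrays did not overlap. Dusp1 was -1.59, -1.61 and -1.77 in control cells with vehicle and -2.25, -2.18 and -1.89 with TGFb, and -1.25, -1.50 and -1.48 in JMJD3 shRNA cells with vehicle and -2.43, -2.50 and -2.44 with TGFb. In both lines the arrays with TGFb lay below those without. Dusp7, a cytoplasmic relative of Dusp6, rose by 0.57 in JMJD3 shRNA cells (adjusted p = 0.000475). The median change of these 8 genes was -0.27 in control cells and -0.22 in JMJD3 shRNA cells, beside -0.01 and -0.02 over all genes. Between the lines 1 rose and 1 fell with vehicle and 1 rose and 2 fell with TGFb, with Dusp2 at -0.84 and -0.63.

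Other genes known to follow ERK activity moved in both directions with TGFb. Of 18 measured, 7 were raised and 5 lowered with TGFb in the control line, and 8 rose and 5 fell in JMJD3 shRNA cells, beside the 10.1% and 9.49% of all genes that passed. Myc, a growth regulator, fell by 1.83 (adjusted p = 9.78e-08) and fell by 1.40, whereas the immediate early gene Ier3 rose by 1.28 and by 1.70, the chromatin protein gene Hmga2 rose by 1.79 and by 1.62 and the pseudokinase gene Trib1 rose by 1.26 and by 1.29. Between the lines 5 were higher and 8 lower with vehicle, and 6 higher and 7 lower with TGFb. Egr1, an immediate early transcription factor, fell by 1.12 and fell by 1.17 in the knockdown line, Phlda1 fell by 1.01 and fell by 1.00, and Epha2 was higher by 0.98 and 0.96. Cyclin D1 (Ccnd1) fell by 0.79 with vehicle. With TGFb it was lower in JMJD3 shRNA cells too, at a mean level of 3.98 beside 4.88 in control cells, without overlap of the arrays. Fos was higher by 1.03 with TGFb. With vehicle it was higher in JMJD3 shRNA cells too, at a mean level of -2.59 beside -3.13 in control cells, without overlap of the arrays. The list's median was 0.07 and 0.06 with TGFb, and -0.18 and -0.06 between the lines.

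Among 14 other ETS factors, 2 rose and 2 fell in control cells given TGFb and 3 rose and 2 fell in JMJD3 shRNA cells. Fli1 rose by 1.30 and by 1.40 and Ets1 rose by 0.40 and by 0.51, while Ets2 fell by 0.60 and fell by 0.65. Between the lines 2 were higher and 4 lower with vehicle, and 2 higher and 3 lower with TGFb, with Elf1 at 0.49 and 0.64 and Fli1 at -0.79 and -0.70.

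All 13 neural stem cell and radial glia markers, among them Nes, Sox2, Pax6 and Vim, were well above background on all 12 arrays. With TGFb Emx2 fell by 0.90 and fell by 0.85, Sox2 fell by 0.15 and fell by 0.33, and Sox9 rose by 0.21 and by 0.56. For each marker list the signals relative to the array's percentile were summed, a sum in which bright probes weigh most and which is read across groups within a list only. The sum of the stem cell list was 259 to 277 in control cells with vehicle and 244 to 269 with TGFb, and 255 to 282 in JMJD3 shRNA cells with vehicle and 275 to 296 with TGFb.

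Markers of several other cell types moved with TGFb, as did Dusp4, Etv1 and Etv5. The summed signal of the oligodendrocyte lineage (8 of 8 genes measured) was 46.4 to 50.3 in control cells with vehicle and 37.8 to 38.2 with TGFb, and 41.4 to 43.7 in JMJD3 shRNA cells with vehicle and 35.6 to 39.0 with TGFb. In it Olig2 fell by 0.88 and fell by 0.48 with TGFb, and Pdgfra fell by 0.52 and fell by 0.34. The astrocyte sum (5 of 6) was 3.46 to 3.80 and 4.02 to 4.31 in control cells without and with TGFb, and 3.33 to 3.71 and 3.55 to 4.38 in JMJD3 shRNA cells. Gfap, the astrocyte filament gene, rose by 0.93 and by 0.46, and it was the 1 gene of these 5 that passed. It was dim, at a mean level of -5.15 with vehicle and -4.22 with TGFb in control cells, and weighs little in the sum. That sum is in effect a reading of S100b and Aldh1l1. Their mean levels in control cells were 1.37 and -0.11 with vehicle, and 1.67 and -0.14 with TGFb. The fibroblast sum (4 of 6) was 1.58 to 1.69 and 1.16 to 1.43 in control cells, and 1.76 to 2.09 and 1.45 to 1.68 in JMJD3 shRNA cells, although its collagen gene Col1a1 rose by 1.11 and by 1.27. The neuron sum (9 of 10) was 13.1 to 14.8 and 12.3 to 12.9 in control cells, and 14.2 to 15.1 and 13.2 to 14.8 in JMJD3 shRNA cells, and in it Gad1 rose by 0.58 and by 0.59. The oligodendrocyte lineage sum and the fibroblast sum, in effect a reading of Prrx1, thus did not overlap between vehicle and TGFb in either line. The astrocyte and neuron sums did not overlap in control cells. Microglia markers (5 of 6) summed to 3.23 to 4.54 and 3.11 to 3.45 in control cells and to 3.38 to 3.75 and 3.32 to 3.91 in JMJD3 shRNA cells. Endothelial markers (4 of 5) summed to 0.39 to 0.55 and 0.38 to 0.53, and to 0.43 to 0.51 and 0.45 to 0.65. Stmn2, Gjb6, Aif1, Lum, Pdgfrb and Cdh5 were not well above background on all arrays of any group. The part of these cells in the members' changes was not tested.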

How the data were processed

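Total RNA of 12 samples was amplified by reverse transcription from oligo-dT, labelled with Cy3 (per the labels' protocols) and hybridised to 1-colour Agilent mouse arrays. Per the file headers, Agilent Feature Extraction 10.7.3.1 read the images, and mm9 is the build of the probe positions. The deposited scanner files hold linear intensity values for each spot, of which the processed signal has had its background corrected by the software, per the file headers. The authors also deposited a table of log2 values, whose 12 columns share a median of 7.93 and each of which matched its own array best. The background correction and centring of that table, not given in the sources used here, are unknown.

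Control spots and spots marked as outliers were left out and spots of a probe averaged. The log2 processed signal was taken relative to the 75th percentile of each array. A probe was kept if all 3 arrays of some group had it well above background (29972 probes), and the probe with the highest mean stood for its gene (24149 genes, 4854 of them with more than 1 kept probe). Groups were compared in 1 fit over all 12 arrays with limma 3.58.1 in R 4.3.3 (lmFit and eBayes with a trend, 3.11 prior degrees of freedom, two-sided tests, Benjamini-Hochberg adjustment over all genes, threshold 0.05). The scripts were tested on simulated data. Arrays of different groups on the same slide deviated together in 12 of 12 pairs (r of 0.18 to 0.58 across genes), whereas those with the same replicate number did so with r above 0.1 in 4 of 18 pairs, so that replicate numbers were not taken to pair samples. Of the 39429 probes, 26055 were named through a RefSeq table (GRCm38.p6, for names and promoter sequences only).

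The members, gene lists and alternatives were chosen with earlier results of these data known. All 10 members are named, up to 4 genes of each list in each comparison (those past the threshold with the largest change), and 3 genes most like each of the 3 members with the widest range of group means. The 13 alternatives were normexp background correction (offset 50), quantile and median scaling, the authors' values, filters, probe rules, slide as a fixed or random term, a replicate block, array weights and a fit of 2 groups alone, beside each array left out and stricter thresholds.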

Additional observations from a re-analysis of the deposited data

How the results depend on the processing

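The calls of Dusp4 (both comparisons with TGFb and knockdown with vehicle), of Dusp6 with knockdown under vehicle, of Etv5 with TGFb, of Dusp5 between the lines under TGFb and of Etv1 and Spry1 with TGFb in JMJD3 shRNA cells held in all 13 alternatives, and of these the Spry1 call was lost without 4 of the 6 arrays. The adjusted p of Dusp4 with TGFb in control cells ran from 3.56e-06 to 0.000615. With scaling to the array median, 2 members (not 4) fell with TGFb in control cells, 2 (not 4) were lower with knockdown under vehicle, and 1 higher (not 2) and 0 lower (not 1) with knockdown under TGFb. With normexp, with the authors' values, with slide as a fixed or random block and with array weights, 1 member rose with TGFb in control cells instead of 0, which was Spry1. Members higher with knockdown under vehicle numbered 2 with the authors' values and with the slide block, and 1 with quantile normalization, with the random block, with array weights and in the fit of 2 groups alone, instead of 0. Members lower there numbered 2 with the authors' values. With knockdown under TGFb, 1 member was higher (not 2) with no filter, with the replicate block and in the fit of 2 groups alone, and 0 were lower with the authors' values and 2 with array weights. At an adjusted p under 0.01, 0 members rose with TGFb in JMJD3 shRNA cells and 1 was higher with knockdown under TGFb. With at least a 1.5-fold change required, 1 member fell with TGFb in control cells, 0 rose and 0 fell in JMJD3 shRNA cells, 0 were lower with knockdown under vehicle, and 1 was higher and 0 lower under TGFb. The replicate block ended the calls of Etv5 with knockdown under vehicle (-0.23, adjusted p = 0.0771) and of Spry1 with knockdown under TGFb (0.30, adjusted p = 0.0779) and no other call of a member.

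Leaving out each array in turn, 0 to 1 members rose and 3 to 4 fell with TGFb in control cells, 0 to 1 rose in JMJD3 shRNA cells, and 1 to 2 were higher and 1 to 2 lower with knockdown under TGFb. Directions turned only for values that did not pass. Spry4 in JMJD3 shRNA cells with TGFb, 0.16, was -0.93 with the slide block, where it passed, -0.47 with the random block and -0.49 to 0.95 without single arrays, and Spry4 with knockdown under vehicle ran from -0.77 to 0.75 without single arrays. The Etv4 difference of responses, -0.004, was 0.067 with normexp, 0.053 with the authors' values, 0.025 as the mean of probes, 0.042 and 0.024 with the fixed and random slide block, 0.030 with array weights and -0.074 to 0.073 without single arrays. The Spry2 difference of responses, 0.06, was -0.016 with the authors' values and -0.016 to 0.11 without single arrays. Under TGFb the difference between the lines in Spred1, 0.01, was -0.0058 with median scaling, -0.028 as the mean of probes, -0.034 and -0.014 with the fixed and random slide block and -0.042 to 0.061 without single arrays. That in Etv1, 0.01, was -0.012 with median scaling, -0.15 as the mean of probes, -0.056 with array weights and -0.047 to 0.082 without single arrays. The cause of these changes was not tested. Signal over background limits Dusp5, whose probe is near the lower end of the range, and 3 arrays a group limit the precision of all values.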

Other observations

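The genes whose levels followed a member most closely were sought by the mean absolute difference over the 12 arrays, after each gene was centred on its own mean, for the 3 members with the widest range of group means. The measure is a description over arrays that share their groups and slides. Dusp4 was most like Epn2 (mean absolute difference 0.05 on the log2 scale), Iffo1 (0.06) and Mapk7 (0.07), and Mapk7 is also in the list of cascade genes described above. Their changes with TGFb in control cells were -0.77, -0.70 and -0.76. Dusp5 was most like Amigo1 (0.12), Pcdh19 (0.13) and Nnat (0.13). Spry4 was most like Aste1 (0.34), Axin2 (0.39) and Ptch1 (0.40), at differences far larger than those of the other pair of members.

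The slide pattern of Spry4 was shared by 24 other genes whose slide means ranged at least as widely, by up to 4.39 for Ubxn4. All had slides 1 and 4 above slides 2 and 3. The labels, and the barcode, software version and genome build read from the file headers, give no property that separates these slides apart from their number. The share of gene spots well above background was 77.3% to 78.7% on slides 1 and 4, and 70.7% to 76.7% on slides 2 and 3. Whether that share is related to the pattern was not tested. These genes were chosen after their values were seen.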
